A study of Mus musculus with 6 samples.

Results

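Cholesterol and fatty acid synthesis was examined through 31 mouse genes that encode the enzymes and regulators of these pathways. The genes were taken by symbol from the 43309 genes of a count table of poly(A) RNA. All 31 were found, and each reached 10 counts in 1 or more libraries, as 16823 genes of the table did. The libraries came from mouse embryonic stem cells (mESCs) of strain J1 (129SV), grown in serum-containing medium on gelatin without feeder cells. The control group held 3 lines with the Zbtb24 genotype wild-type (2lox/+), and the other group 3 lines labelled Zbtb24 knockout (1lox/1lox), with 1 library per line. All 6 lines thus carried a modified Zbtb24 allele, the controls beside a wild-type one. The lines of a group were described as independently derived, and whether they share a parent clone was not given in the sources used here. All libraries were made from 2 µg total RNA with 8 PCR cycles, in a study that compared library preparation protocols.

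The totals ran from 26987179 to 27754105 counts in the control libraries and between 25042261 and 28838924 in the other group. Zbtb24, the targeted gene, had 510, 512 and 489 counts in control libraries 1 to 3, against 888, 925 and 1039 in the libraries labelled knockout. Its log2 fold change was 0.99 (SE 0.05, adjusted p = 4.32e-23). The targeted gene thus went against the label, although counts per gene do not show whether the deleted part was read. The group is therefore called the libraries labelled knockout throughout. Values are given as cpm, fragment counts relative to the scaled size of the library. Sums over marker lists are instead relative to the unscaled library total. Markers of pluripotent cells, among them Pou5f1, summed to 4928.4 to 5043.9 cpm in the controls and 6049.7 to 6100.4 cpm in the libraries labelled knockout. Of these markers, 8 of the 9 were higher. Adipocyte markers, the list nearest to fat synthesis, summed to at most 3.71 cpm in any library, and Lep and Cfd were at 0 in all 6.

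Cells make cholesterol and fatty acids from cytosolic acetyl-CoA. One branch joins acetyl-CoA units into mevalonate, then into squalene, lanosterol and cholesterol. The other carboxylates acetyl-CoA, builds palmitate and then elongates and desaturates it. Both branches are controlled by the sterol regulatory element binding proteins SREBP1 and SREBP2, encoded by Srebf1 and Srebf2. These factors are held in the endoplasmic reticulum with the escort protein Scap and the anchor Insig1 when sterols are abundant, and are released to the Golgi, cleaved and sent to the nucleus when sterols are scarce. Their known binding sites often lie near the start of target genes, together with sites for NF-Y and Sp1.

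Promoter sequences from RefSeq (GRCm38.p6), reaching from 250 bases before to 50 bases after a gene's start, were found for 24 of the 31 genes, in 30 windows. No such sequence was found for the other 7, Fads1, Fdft1, Fdps, Scd1, Scd2, Sqle and Stard4. Among these are Scd2, Scd1, Fads1 and Sqle, which rose by a log2 fold change of at least 0.5 (below). The windows were searched on both strands for the letters of 4 known motifs. The sterol regulatory element TCACNCCAC was in 1 of the 24 genes, Hmgcs1 (4.2%), and in 1.44% of all 27025 genes with such a sequence. CCAAT, the core of an NF-Y site, was in 19 of the 24 (79.2%) against 41.06% of all genes. The Sp1 box GGGCGG was in 20 of the 24 (83.3%) against 38.2%. The E-box TCACGTG, which SREBP1 can also bind, was in 3 of the 24 (12.5%) against 4.29%. Among the 11948 genes with a promoter that also passed the count minimum, the shares were 1.5%, 42.9%, 66.6% and 6.6% in the same order, so the share of the Sp1 box in the 24 genes lay closer to that of expressed genes. A match describes letters, and binding was not measured.

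The windows below show the sterol regulatory element of Hmgcs1, the largest fall of the set, the 3 E-boxes, and the CCAAT of Lss and Fasn, which moved in opposite directions. Each is written 5′ to 3′ on the strand of its gene, and the capitals mark the matched letters.
Hmgcs1, sterol regulatory element, chr13:119690189-119690247 (+): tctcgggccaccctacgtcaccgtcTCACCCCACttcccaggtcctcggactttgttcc
Insig1, E-box, chr5:28071285-28071341 (+): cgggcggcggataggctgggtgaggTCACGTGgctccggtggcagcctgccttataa
Hsd17b7, E-box, chr1:169969318-169969374 (-): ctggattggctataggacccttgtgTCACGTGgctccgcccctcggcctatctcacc
Sc5d, E-box read on the other strand, chr9:42264367-42264423 (-): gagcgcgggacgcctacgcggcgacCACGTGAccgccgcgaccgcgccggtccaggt
Lss, CCAAT read on the other strand, chr10:76531518-76531572 (+): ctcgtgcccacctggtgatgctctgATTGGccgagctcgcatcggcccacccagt
Fasn, CCAAT, chr11:120824580-120824634 (-): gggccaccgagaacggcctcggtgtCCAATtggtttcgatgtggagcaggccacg
The Hmgcs1 element lay 137 to 129 bases before the gene's start, and the E-boxes of Insig1, Hsd17b7 and Sc5d began 102, 144 and 98 bases before theirs. In Lss and in Fasn the CCAAT shown lay 62 to 58 bases before the start. In Fasn a further copy on the other strand, 59 to 55 bases before the start, overlapped it.

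Most of the synthesis genes were higher in the libraries labelled knockout, by modest amounts. Of the 31 genes, 24 were higher, 6 were lower and 1, Fads2, was not called by edgeR's quasi-likelihood test at a Benjamini-Hochberg false discovery rate (FDR) of at most 0.05. This was a contrast in which 69.5% of all tested genes were called, 34.4% higher and 35.2% lower. The least counted member, Tm7sf2, had a mean of 220.0 counts, and of the 9594 genes with at least that mean 78.0% were called, 43.3% higher and 34.7% lower. The share of members called lay above these values. The share called higher, 77.4%, stood beside 43.3% in genes counted at least as deeply as Tm7sf2. Tm7sf2 alone set this minimum, and the next least counted member, Ebp, averaged 571.3 counts. The background was thus not matched to the members in depth. The cpm values of the groups did not overlap for 30 of the 31 genes, against 71.5% of all genes tested. Of the 9594 genes counted at least as deeply, 7573 did not overlap. The median log2 fold change of the members was 0.27, against 0.00 over all genes and 0.03 over the genes counted at least as deeply.

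The sizes of the changes were close to those of genes counted at least as deeply as Tm7sf2. A log2 fold change of at least 0.5 in size was seen in 7 members (22.6%), against 37.4% of all tested genes and 22.0% of those counted at least as deeply. These were Scd2, Scd1, Fads1, Hsd17b7, Lss and Sqle, which were higher, and Hmgcs1, which was lower. For 2 members, Scd1 and Scd2, it was at least 1. For 14 of the 30 called members the size was under 0.3, and the highest adjusted p among the called was 0.00223, for Acly. Summed over the 31 genes, expression was 4258.9, 4166.8 and 4106.5 cpm in the control libraries, against 4847.6, 4751.7 and 4715.1 cpm in those labelled knockout, a ratio of 1.14. As a share of the scaled library size, the members took 0.411% to 0.426% in controls and 0.472% to 0.485% in libraries labelled knockout.

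**Figure D1:**
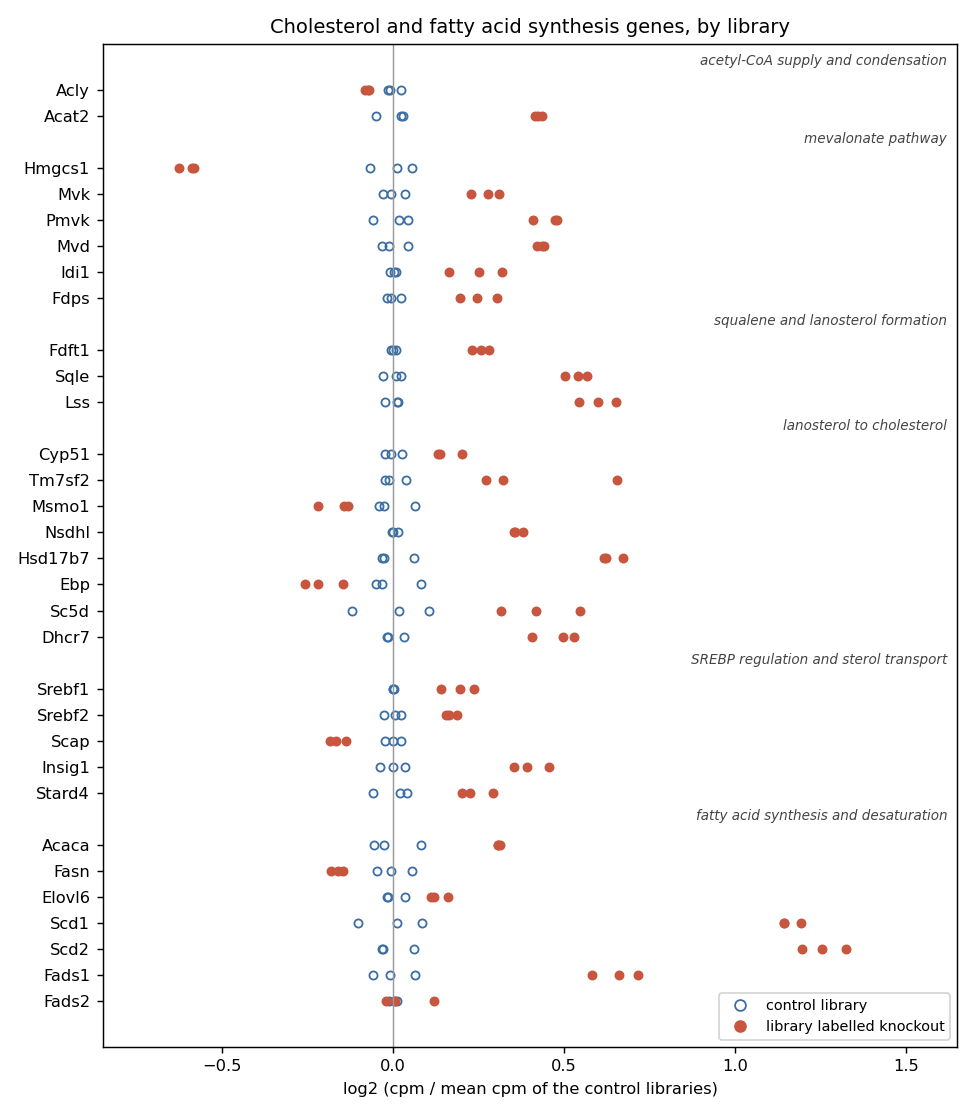
Each row is 1 of the 31 genes, grouped by role, and each point 1 library. The horizontal axis is the log2 ratio of the library's cpm to the mean cpm of the 3 control libraries (open circles), with the 3 libraries labelled knockout as filled circles. Scd1 and Scd2 lie farthest to the right and Hmgcs1 farthest to the left, and Fads2 is the 1 gene whose groups overlap.

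The supply of acetyl-CoA was represented by Acly, which cleaves citrate in the cytosol, and Acat2, which joins a pair of acetyl-CoA units in the first step of the sterol branch. Acly had 709.0, 692.9 and 690.3 cpm in the control libraries, against 662.0, 658.5 and 663.6 cpm in those labelled knockout. All libraries labelled knockout were below the lowest control, by a narrow margin, and the log2 fold change was -0.08 (SE 0.022, adjusted p = 0.00223). Acat2 went the other way, from 65.5, 69.1 and 68.8 cpm to 91.7, 90.3 and 90.9 cpm, with a log2 fold change of 0.42 (SE 0.032, adjusted p = 1.35e-16). The Acat2 transcript shares a stretch of 1477 of its 2250 bp at 97.7% identity with Acat3, which had at most 10 counts in any library. Fragments from that stretch may be missing from Acat2. It also shares 445 bp at 98.7% identity with Tcp1, which had up to 22543 counts. The strand of the Tcp1 match was not recorded, and an overlap with a gene on the opposite strand would remove no sense-strand fragments. Because Acly was so much more abundant, the summed cpm of both genes was 765.2 ± 8.17 (SD, n = 3) in the controls and 752.3 ± 3.1 in the libraries labelled knockout.

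In the mevalonate pathway 5 of the 6 genes rose and Hmgcs1, its first enzyme here, fell. Hmgcs1 makes HMG-CoA from acetoacetyl-CoA and acetyl-CoA. It had 233.3, 240.2 and 220.6 cpm in the control libraries, against 153.9, 149.8 and 154.4 cpm in those labelled knockout. The groups lay far apart and the level fell by 34.0%, a log2 fold change of -0.60 (SE 0.028, adjusted p = 2.05e-24). Leaving out any 1 library gave values between -0.63 and -0.57.

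The enzymes that follow in the same pathway all rose. Mvk and Pmvk, the kinases that phosphorylate mevalonate in turn, had log2 fold changes of 0.27 (SE 0.047, adjusted p = 1.82e-06) and 0.45 (SE 0.042, adjusted p = 2.28e-13). Mvd, which decarboxylates the product to isopentenyl diphosphate, rose from 53.5, 54.2 and 56.4 cpm to 73.2, 74.3 and 74.0 cpm (log2 fold change 0.43). Idi1, the isomerase of that product, and Fdps, which builds farnesyl diphosphate from it, both had a log2 fold change of 0.25. Idi1 shares 684 of its 3027 bp at 100% identity with the pseudogene Gm13502, so fragments from that stretch may have been discarded as ambiguous. The fall of Hmgcs1 and the rises of the other 5 nearly cancelled in the sum of the pathway, which was 594.8, 607.6 and 588.4 cpm in the controls and 617.4, 585.5 and 602.6 cpm in the libraries labelled knockout. These sums overlapped between the groups. Hmgcs1 made up 38.7% of the pathway's cpm in the controls and 25.4% in the libraries labelled knockout.

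All 3 genes of squalene and lanosterol formation rose, with a median log2 fold change of 0.54. Fdft1, squalene synthase, which commits farnesyl diphosphate to sterols, went from 107.1, 106.2 and 106.5 cpm to 129.5, 127.3 and 125.1 cpm, a log2 fold change of 0.26 (SE 0.028, adjusted p = 3.85e-11). Sqle, squalene epoxidase, a rate-limiting oxygenase of the branch, went from 95.3, 92.0 and 94.5 cpm to 136.5, 133.0 and 139.2 cpm, a log2 fold change of 0.54 (SE 0.029, adjusted p = 6.81e-22). Lss, which closes the sterol rings to lanosterol, went from 68.7, 70.5 and 70.4 cpm to 109.7, 105.8 and 101.9 cpm, a log2 fold change of 0.60 (SE 0.032, adjusted p = 4.07e-22). For each of the 3 the lowest library labelled knockout was well above the highest control. Their summed cpm rose from 270.5 ± 1.45 to 369.3 ± 5.56 (SD, n = 3), a ratio of 1.37. Fdft1 shares 774 of its 3698 bp at 100% identity with Ctsb, which had up to 2319 counts. The strand of that match was not recorded, and an overlap with a gene on the opposite strand would remove no sense-strand fragments. Fdft1 also shares 1249 bp at 97.4% identity with the pseudogene Gm6781, and fragments from that stretch may be missing from Fdft1.

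The ratio of Hmgcs1 to Sqle, an early and a late enzyme of the branch, set these opposite movements side by side within each library. Per kb of transcript it was 3.16, 3.36 and 3.01 in the control libraries, against 1.45, 1.45 and 1.43 in those labelled knockout. The values did not overlap between the groups and were nearly equal within the libraries labelled knockout.

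Of the 8 genes that turn lanosterol into cholesterol, 6 rose and 2, Msmo1 and Ebp, fell. The largest change was in Hsd17b7, a ketosteroid reductase of this part of the pathway. It had 22.1, 20.8 and 20.7 cpm in the control libraries, against 32.5, 33.8 and 32.6 cpm in those labelled knockout (log2 fold change 0.64, SE 0.048, adjusted p = 1.57e-16). Dhcr7, the reductase that yields cholesterol itself, went from 60.2, 58.3 and 58.2 cpm to 84.9, 83.1 and 78.0 cpm, a log2 fold change of 0.48 (SE 0.034, adjusted p = 3.92e-17). The groups lay apart in both genes, by more than the spread within either group.

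Smaller rises were found in the other 4. Nsdhl, a decarboxylating sterol dehydrogenase, had a log2 fold change of 0.36 (SE 0.042), and Sc5d, a sterol desaturase, one of 0.43 (SE 0.058) with a wider spread of 23.0 to 27.0 cpm in the libraries labelled knockout. Cyp51, which removes a methyl group from lanosterol, rose by 11.5% (log2 fold change 0.16, adjusted p = 1.24e-04). Tm7sf2, a sterol reductase and the least expressed gene of the set, had 6.93, 7.17 and 6.88 cpm in the controls and 11, 8.73 and 8.43 cpm in the libraries labelled knockout. Its first library labelled knockout stood above the other two, and its log2 fold change of 0.42 (SE 0.089, adjusted p = 4.96e-05) ranged from 0.29 to 0.50 when 1 library was left out.

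The falls in this step were small. Msmo1, the methylsterol monooxygenase that acts after Cyp51, went from 69.4, 74.6 and 70.0 cpm to 64.6, 61.3 and 65.1 cpm, a log2 fold change of -0.16 (SE 0.035, adjusted p = 5.7e-05). Ebp, the sterol isomerase, went from 21.8, 23.9 and 22.1 cpm to 19.4, 18.9 and 20.4 cpm, a log2 fold change of -0.20 (SE 0.054, adjusted p = 8.3e-04). In both the highest library labelled knockout was below the lowest control, by a margin smaller than the range of the controls. Over the 17 enzymes from Hmgcs1 to Dhcr7, 14 rose and 3 fell, with a median log2 fold change of 0.36.

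Of the 5 genes of SREBP regulation and sterol transport, 4 rose and Scap fell. Srebf1 and Srebf2, which encode the transcription factors, rose by 14.1% and 12.2% (adjusted p = 2.66e-07 and 2.59e-07). The SREBPs are regulated by cleavage of the protein, which these RNA counts do not measure. Srebf2 was the more abundant per kb of transcript in every library, by 1.43, 1.45 and 1.39 times in the controls and 1.38, 1.39 and 1.44 times in the libraries labelled knockout, and these ratios overlapped.

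Insig1, the retention protein that is itself an SREBP target, had 69.9, 71.6 and 68.0 cpm in the control libraries, against 95.9, 89.2 and 91.7 cpm in those labelled knockout. Its log2 fold change was 0.40 (SE 0.033, adjusted p = 2.34e-15), the largest of these 5 genes. Scap, the escort that carries SREBPs to the Golgi, went from 60.7, 59.7 and 58.7 cpm to 53.2, 54.2 and 52.5 cpm, a log2 fold change of -0.16 (SE 0.035, adjusted p = 6.11e-05). Stard4, a cytosolic sterol carrier, had a log2 fold change of 0.24 (adjusted p = 1.03e-07). The retention protein and the escort thus moved in opposite directions, each without overlap between the groups.

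The fatty acid genes held both the largest rises of the set and the gene that did not change detectably. Acaca, acetyl-CoA carboxylase, which makes the malonyl-CoA building block, went from 172.6, 159.9 and 156.8 cpm to 201.7, 202.3 and 201.5 cpm, a log2 fold change of 0.31 (SE 0.028, adjusted p = 1.46e-13). The Acaca transcript shares 6118 of its 9513 bp at 99.2% identity with the predicted gene Gm5182, so part of its fragments may have been discarded. Fasn, fatty acid synthase, had the highest counts of the set and fell from 1142.1, 1094.8 and 1064.7 cpm to 983.5, 994.7 and 970.5 cpm, a log2 fold change of -0.16 (SE 0.023, adjusted p = 2.29e-08). Elovl6, which lengthens palmitate, rose by 9.4% (log2 fold change 0.13, adjusted p = 3.86e-05). The consecutive enzymes Acaca and Fasn thus moved in opposite directions.

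Scd1 and Scd2, the stearoyl-CoA desaturases that make monounsaturated fatty acids, rose most. Scd2 had 270.7, 254.0 and 254.2 cpm in the control libraries, against 650.3, 619.5 and 594.4 cpm in those labelled knockout (2.39-fold, log2 fold change 1.26, SE 0.027, adjusted p = 4.88e-38). Scd1 had 63.1, 55.4 and 59.9 cpm in the controls and 136.0, 131.3 and 131.3 cpm in the libraries labelled knockout (2.23-fold, log2 fold change 1.16, SE 0.034, adjusted p = 1.01e-32). The lowest library labelled knockout lay above the highest control by more than 2 times in both genes. Per kb, Scd2 exceeded Scd1 by 3.8, 4.06 and 3.76 times in the controls and by 4.24, 4.18 and 4.01 times in the libraries labelled knockout, ranges that overlapped. Their transcripts share 623 bp at 95.5% identity, so counts at those stretches may be incomplete.

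Fads1 and Fads2, neighbouring desaturases of polyunsaturated fatty acids, came apart. Fads1 had 45.7, 41.9 and 43.4 cpm in the control libraries, against 69.0, 71.7 and 65.4 cpm in those labelled knockout (log2 fold change 0.65, SE 0.038, adjusted p = 1.89e-20). Fads2 had 47.4, 47.1 and 46.6 cpm in the controls and 46.3, 51.0 and 47.2 cpm in the libraries labelled knockout, with overlapping groups. The log2 fold change of Fads2 was 0.03 (SE 0.039, adjusted p = 0.471), with a 95% interval of -0.04 to 0.11 from 1.96 SE. The ratio of Fads1 to Fads2 per kb was 0.878, 0.81 and 0.848 in the controls and 1.36, 1.28 and 1.26 in the libraries labelled knockout, so the order of these genes was reversed.

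Desaturase and synthase were also set side by side. The ratio of Scd2 to Fasn per kb was 0.437, 0.427 and 0.44 in the control libraries, against 1.22, 1.15 and 1.13 in those labelled knockout. Fasn made up 60.4% of the summed cpm of the 7 fatty acid genes in the controls and 44.3% in the libraries labelled knockout. The sum itself was 1820.8 ± 63.4 cpm and 2217.1 ± 41.9 cpm (SD, n = 3), a ratio of 1.22.

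Levels were compared between genes per kb of the longest annotated transcript. In the controls Acly was highest with 157.6 cpm per kb, followed by Fasn with 109.5, Hmgcs1 with 66.8 and Scd2 with 47.6. In the libraries labelled knockout Acly was again highest with 149.4 cpm per kb, followed by Scd2 with 113.9, Fasn with 97.8 and Fdps with 53.1, and Hmgcs1 had moved to rank 6 with 44.1. Tm7sf2 was lowest in both groups, with 2.27 and 3.04 cpm per kb.

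**Figure D2:**
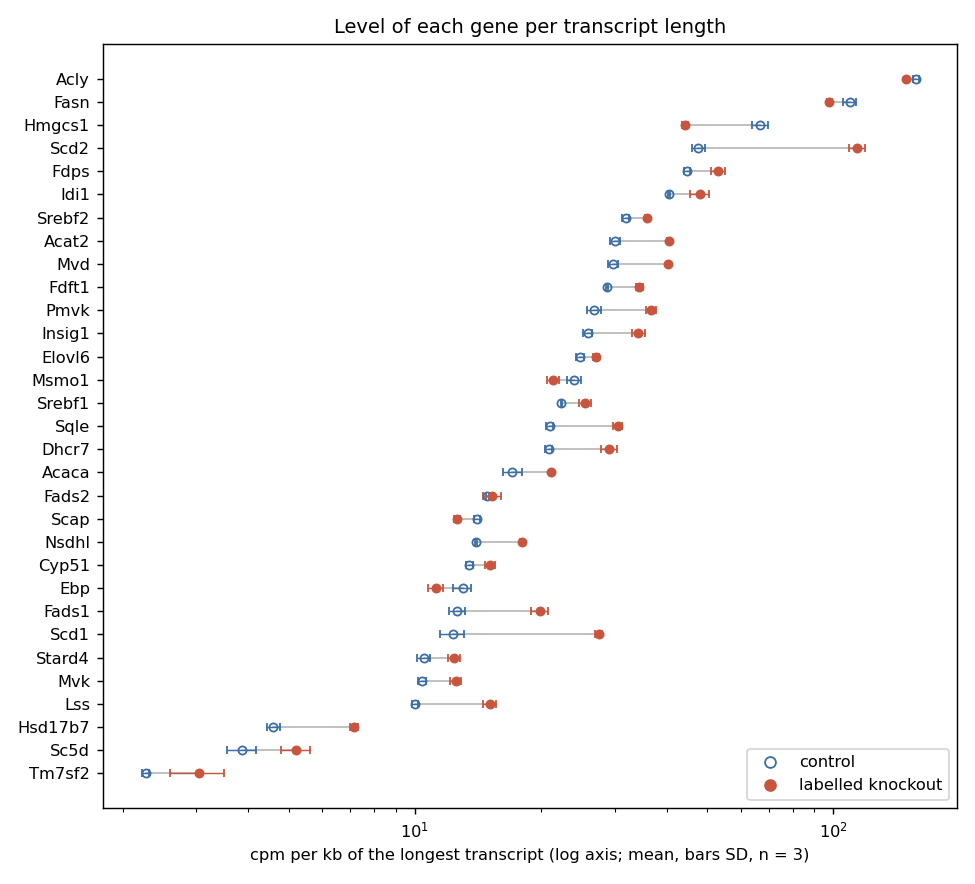
Each row is 1 gene, ordered by its level in the controls. The horizontal log axis gives cpm per kb of the longest transcript as the mean of 3 control libraries (open) and of 3 libraries labelled knockout (filled), with bars for the SD. Scd2 rises from rank 4 to rank 2 while Hmgcs1 falls from rank 3 to rank 6, and Tm7sf2 is lowest in both groups.

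The neighbours of the genes on the chromosome were examined because some regions were shifted as a whole. Here and in the comparisons below, only tested genes averaging 10 counts or more were taken as neighbours. Hmgcs1 lies at chr13:119690379-119708260 (GRCm38, + strand), near the end of chromosome 13. All 9 of its neighbours within 500 kb had log2 fold changes below 0, and 8 of them were called lower, with a median of -1.0. Those averaging 100 counts or more were Nnt at -1.0, Paip1 at -0.92, 4833420G17Rik at -0.73, Zfp131 at -0.98 and Gm21761 at -5.80. The fall of Hmgcs1 by 0.60 was thus smaller than that of each of these 5 genes.

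The region as a whole stood apart from the rest of the chromosome. Between 118 and 120 Mb of chromosome 13, all 11 tested genes averaging 10 counts or more were below 0, with a median of -0.92. The window from 116 to 118 Mb held 3 such genes with a median of -1.68, and that from 120 to 122 Mb held 5 with a median of -4.71. The windows before these, from 112 to 114 and 114 to 116 Mb, had medians of 0.20 and 0.10, and the median over 563 genes of chromosome 13 was 0.03. The part of this region in the fall of Hmgcs1 was not tested.

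Further members lay in shifted regions or among shifted neighbours. Hsd17b7 is on chromosome 1, whose 980 genes with at least 10 counts on average had a median of 0.50, and the median of its 20-Mb window was 0.45. Its own value of 0.64 was above both. Msmo1 is on chromosome 8, whose median was -0.20, and its 4 neighbours within 500 kb had log2 fold changes from -1.49 to -0.43. Sqle, with 0.54, had 9 neighbours within 500 kb whose median was 0.51, in a 20-Mb window with a median of 0.21. Nsdhl, with 0.36, had 18 such genes on chromosome X with a median of 0.93, over a range from -2.84 to 2.25. The part of these neighbours in the changes of Hsd17b7, Msmo1, Sqle and Nsdhl was not tested. Without Hsd17b7 and Msmo1, the members in shifted windows of chromosomes 1 and 8, 23 were higher and 5 lower. Sqle and Nsdhl were still counted there.

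The desaturase clusters on chromosome 19 differed from each other. Around Scd1 (chr19:44394455-44407879) and Scd2 (chr19:44293674-44306864), the 15 other genes within 500 kb of Scd1, Scd2 itself among them, had a median log2 fold change of 0.33, over a range from -1.34 to 1.85. The highest was the related gene Scd3, which rose from 1.03, 1.13 and 0.874 cpm to 4.25, 3.33 and 3.37 cpm (log2 fold change 1.85, SE 0.167, adjusted p = 7.15e-14). Cpn1, with 1.30 (SE 0.073, adjusted p = 2.38e-21), rose as much as Scd1 and Scd2, and Sec31b with 1.18, Cyp2c23 with 1.19 and Pax2 with 1.06 came close to them at low counts. Chuk with 0.46, Hif1an with 0.08 and Bloc1s2 with -0.34 moved less or the other way. The part of the region in the rises of Scd1 and Scd2 was not tested.

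Around Fads1 (chr19:10182888-10196877) the median of 20 genes, Fads2 among them, was 0.02, and Fads1 stood above all of them. The third gene of that family, Fads3, had 1.74, 1.46 and 1.78 cpm in the controls and 1.11, 1.22 and 1.38 cpm in the libraries labelled knockout (log2 fold change -0.42, SE 0.189, adjusted p = 0.0459). The Fads3 value rested on a mean of 39.3 counts and was not firm, since DESeq2 did not call it (adjusted p = 0.163) and neither did 4 of the 6 fits that left out 1 library. Of 29 members with at least 3 tested genes averaging 10 counts or more within 500 kb, 5 lay above the range of those genes. These were Acat2, Lss, Fads1, Msmo1 and, by a margin too small to show at 2 decimals, Hmgcs1.

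**Figure D3:**
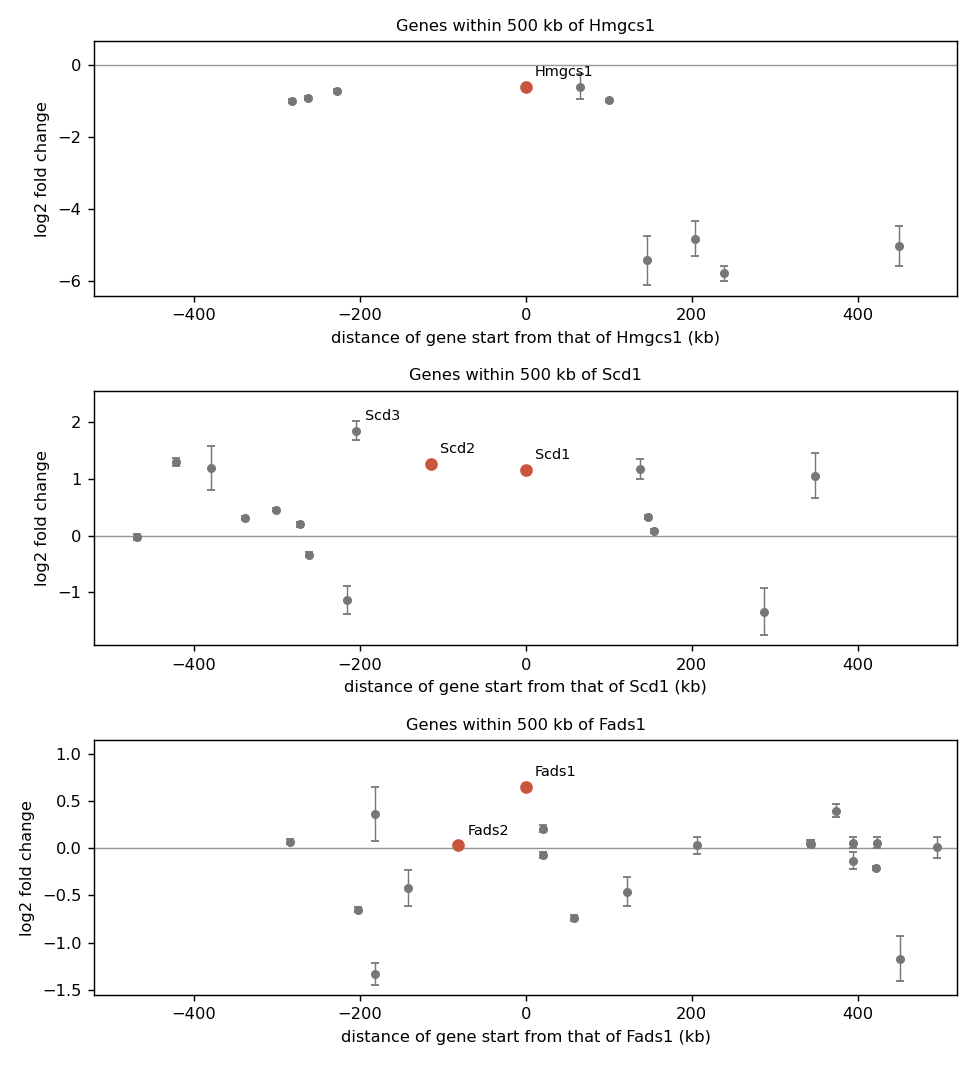
Each panel shows the tested genes averaging 10 counts or more within 500 kb of a member. The horizontal axis is the distance between gene starts in kb. The vertical axis is the log2 fold change (labelled knockout against control, bars SE). All neighbours of Hmgcs1 are below 0, whereas the values around Scd1 and Fads1 fall on both sides of 0.

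Related pathways that are not among the 31 genes moved less uniformly. Of 15 genes that process or degrade SREBP pathway proteins, 8 were higher, 4 lower and 3 not called, with a median of 0.09. Insig2, the relative of Insig1, rose from 20.3, 20.1 and 20.4 cpm to 29.4, 30.0 and 29.3 cpm (log2 fold change 0.55, adjusted p = 4.85e-14) and lies on the shifted chromosome 1. Per kb, Insig1 exceeded Insig2 by 3.45, 3.56 and 3.34 times in the controls and by 3.26, 2.97 and 3.14 times in the libraries labelled knockout.

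Of the 31 further genes of fatty acid and lipid synthesis 30 were tested, and 13 were higher, 12 lower and 5 not called, with a median of 0.05. Elongases were at both ends, since Elovl4, for very long chains, rose from 12.5, 11.4 and 13 cpm to 20.3, 19.9 and 21.6 cpm (log2 fold change 0.75), and Elovl1, for saturated long chains, fell from 23.2, 23.2 and 23.1 cpm to 12.2, 11.4 and 11.7 cpm (log2 fold change -0.98). The isoprenoid branch, which leaves the sterol pathway at farnesyl diphosphate, had 3 genes higher, 8 lower and 3 not called of 14, with a median of -0.12. There Ggps1, which makes geranylgeranyl diphosphate, had a log2 fold change of 0.66 and Fnta, the shared subunit of protein prenyltransferases, one of -0.90. Fnta lies on chromosome 8, in the part treated as shifted, and the part of that region in its fall was not tested.

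Of 16 tested genes of sterol efflux, storage and trafficking (17 listed), 2 were higher, 6 lower and 8 not called, with a median of 0.01. Abca1, the cholesterol exporter induced by liver X receptors, fell from 13.7, 11.9 and 11.6 cpm to 4.29, 4.22 and 4.0 cpm (log2 fold change -1.57, SE 0.09, adjusted p = 6.54e-21). Npc1, which exports cholesterol from lysosomes, had a log2 fold change of 0.23. Of 20 tested genes of fatty acid oxidation (22 listed), 9 were higher, 6 lower and 5 not called, with a median of 0.05. The extremes were Decr1, an auxiliary reductase for unsaturated chains, at 0.54, and Slc25a20, the mitochondrial carnitine carrier, which fell from 114.6, 120.2 and 123.7 cpm to 37.0, 39.2 and 39.3 cpm (log2 fold change -1.63).

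**Figure D4:**
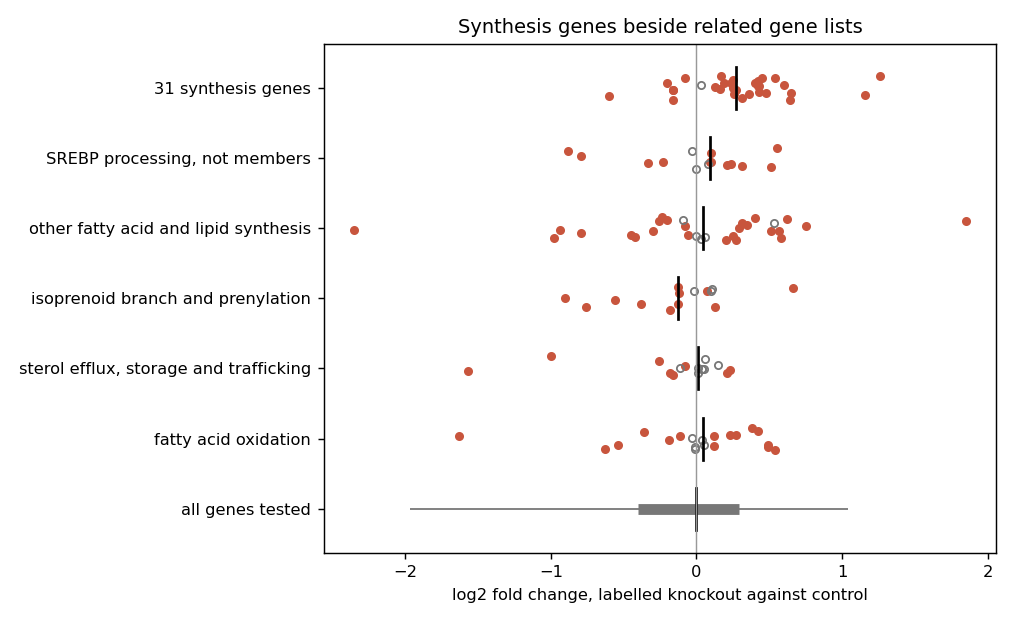
Each row is a gene list and each point a gene at its log2 fold change, labelled knockout against control (filled, called at FDR at most 0.05; open, not called), with a vertical bar at the list's median. The bottom row gives all 16823 genes tested, with a thin line from the 5th to the 95th percentile (-1.97 to 1.04) and a thick line from the 25th to the 75th (-0.40 to 0.29). The 31 synthesis genes have a median of 0.27 and the 5 related lists medians from -0.12 to 0.09.

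Markers of other cells moved with the groups in part. Fibroblast markers summed to 57.9 to 61.4 cpm in the controls and 10.5 to 11.1 cpm in the libraries labelled knockout, most of it Col1a1 (log2 fold change -3.39), with 6 of 7 tested genes lower and Lum at 0 in all libraries. Neural progenitor markers, led by Tubb3, summed to 284.7 to 291.4 cpm and 268.9 to 275.2 cpm, with 3 of 5 tested genes higher and 2 lower. These close sums held large opposite moves. Nes had a log2 fold change of -2.33 and Olig2, at no more than 0.0729 cpm in the controls, one of 7.39, beside 0.42 for Tubb3. Endoderm markers, led by Dab2, summed to 15.7 to 16.7 cpm and 16.1 to 17.3 cpm, with Afp and Ttr under the count minimum. Of the 8 tested endoderm markers 2 were higher, 3 lower and 3 not called, with log2 fold changes from -1.99 to 1.24. Of the 3 tested adipocyte markers 2 were lower, and the list, led by Cebpa, summed to 2.12 to 2.46 cpm in the libraries labelled knockout. The part of these markers in the changes of the synthesis genes was not tested, and in bulk RNA fewer cells of a type and less RNA per cell cannot be told apart.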

How the data were processed

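The authors deposited raw counts of fragments per gene from stranded poly(A) libraries (TruSeq, paired reads of 76 bp). Per the labels and the study's methods, reads left after a Bowtie2 2.1.0 filter against rRNA were mapped to mm10 with TopHat2 2.0.10 and counted per GENCODE gene with HTSeq 0.6.1, on the sense strand, with fragments of several genes or places discarded. Genes with near-identical copies or with overlapping neighbours on the same strand therefore lose an unknown share of fragments. Symbols, coordinates and longest transcripts came from a later GENCODE release for GRCm38 (42425 of 43309 identifiers matched).

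Genes with at least 10 counts in 1 or more libraries were tested with edgeR 4.0.16 in R 4.3.3 (TMM scaling, quasi-likelihood test, all 6 libraries, no covariate), and p-values were adjusted by Benjamini-Hochberg over 16823 genes and called at FDR at most 0.05. The method was tested on simulated data. cpm values are counts relative to the library size after TMM scaling, except for the summed cpm of marker lists, which used unscaled library totals. Similar transcripts were sought with BLAST 2.17.0 on both strands (at least 95% identity over 76 bp). A stretch of at least 10% of the longest transcript was shared by 7 members, Acaca, Acat2, Elovl6, Fdft1, Hmgcs1, Idi1 and Scd2. All 31 genes are named. Of each related list the largest rise and fall were named among genes called, averaging 100 counts or more, without overlap between the groups, and of each marker list the gene with the highest mean. One gene that this rule selects is not reported here. Neighbours, Scd3, Fads3 and other marker genes named beside these were chosen after their values were seen. The members and lists were chosen with earlier results of these data known. Libraries of a group differed by more than sampling noise (mean chi-square per gene at least 1.14). The replicate numbers did not pair the libraries. Alternatives were DESeq2 1.42.0, other edgeR tests, scalings and filters, and each library left out.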

Additional observations from a re-analysis of the deposited data

How the results depend on the processing

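The 30 called genes kept their direction and their side of the threshold under all 16 alternative fits, 480 of 480 comparisons, and the highest adjusted p among them was 0.0157 (Ebp, without control library 2). Fads2 stayed uncalled, with adjusted p from 0.222 to 0.87, and changed sign with library totals (-0.02) and without labelled knockout library 2 (-0.01), over a range up to 0.06. Requiring a size of at least 0.5 left 6 members higher and 1 lower, and 2339 and 3357 of all genes. Without the shifted windows of chromosomes 1 and 8, 23 members were higher and 5 lower, and 23 and 4 when the end of chromosome 13, chosen after seeing the data, was left out too. With the replicate number as a block, 24 members were higher and 6 lower. Same-numbered libraries correlated at 0.017, 0.073 and 0.013 in their deviations, so the numbers gave no pairing.

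Summed log2 ratios depended on scaling and on abundant genes, by construction. With library totals only they were -0.07 for acetyl-CoA supply, -0.04 for mevalonate (0.01 before, a reversal), 0.40 for squalene and lanosterol, 0.18 for lanosterol to cholesterol, 0.13 for SREBP regulation, 0.24 for fatty acids and 0.14 for all. Without the most counted gene they were 0.42 (reversed), 0.30, 0.56, 0.15, 0.78 for fatty acids and 0.30 for all.

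Of the related lists, the higher calls of SREBP processing fell to 5 with library totals. Those of the isoprenoid branch were 1 with DESeq2, library totals, at least 100 counts or FDR 0.01, and 1 to 3 without 1 library, the lowest without labelled knockout library 3. Those of sterol efflux were 1 with DESeq2, the exact test, library totals, no filter, at least 100 counts or FDR 0.01, and 1 to 2 without 1 library, the lowest without control library 1 or 2 or labelled knockout library 1 or 3. At a size of 0.5, higher and lower calls were 2 and 2 for SREBP processing, 6 and 4 for other lipid synthesis, 1 and 3 for isoprenoids, 0 and 2 for sterol efflux, and 1 and 3 for oxidation. With 1 mismatch allowed, 10 of the 24 members with a promoter (41.7%) held the sterol regulatory element. The share was 26.7% of all genes and 29.4% of those that also passed the count minimum. The causes were not tested. The depth of at least 25042261 counts limits genes such as Tm7sf2 most.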
